A study of Mus musculus with 6 samples.

Results

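This account concerns 10 genes whose proteins sit at the surface of brain endothelial cells: Cldn5, Esam, Pecam1, Slco1a4, Abcb1a, Ly6c1, Flt1, Kdr, Tek and Eng. They were taken by symbol from the probe sets that name exactly 1 gene in the platform's probe-to-gene table. By that rule 9 of the 10 genes, out of 18193 genes so named in the whole series, were measured by 14 probe sets. For Ly6c1 the probe set names 2 genes, and no level is given for it. The measured samples were ribosome-bound RNA from mouse cortex, collected by translating ribosome affinity purification (TRAP), in which a bacterial artificial chromosome (BAC) drives a tagged ribosomal protein in the cells of a driver gene. The S100a10 group held 3 samples from line ES691 and the Glt25d2 group held 3 from line DU9. Both groups were untreated mice that had been backcrossed for 3 to 5 generations from FVB onto C57BL/6, both carried a BAC transgene, and each driver was represented by a single line. The sources used here do not give the mice's ages or say whether tissue was pooled. The series text describes both drivers as marking cortical pyramidal cells and adds that the S100a10 BAC also labels some cells that are not neurons.

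Brain capillaries are lined by endothelial cells that form the blood-brain barrier. Their tight junctions close the path between cells, and uptake carriers and efflux pumps in their membranes decide which small molecules cross the cells. Receptors for vascular endothelial growth factor (VEGF), angiopoietins and the transforming growth factor family keep the vessels alive and stable, and Wnt ligands made by neural cells switch on the barrier's own gene programme. Endothelial cells are not among the pyramidal cells that the drivers are described as marking.

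Values are deposited array intensities on a linear scale. A probe set was tested when its mean reached 50 in at least 1 group, and "lower" or "higher" below means S100a10 relative to Glt25d2. Differences are log2 values from limma with a Benjamini-Hochberg adjusted p over all 21291 tested probe sets, and a call needs an adjusted p under 0.05. The labels name the samples as biological replicates, and the p-values measure the spread among 3 such samples a group. The array's scale differed by group: the median intensity was 20.4 to 21.3 in Glt25d2 and 35.5 to 35.8 in S100a10, and the median difference over all genes was 0.56. After quantile normalization of the 6 arrays that median was -0.037. At least 2 Glt25d2 arrays held an identical value in 23.4% of tested probe sets and in 5 of the 14 member probe sets. The driver S100a10 was at 3126, 3141 and 3444 in the Glt25d2 arrays and at 15495, 17898 and 13064 in the S100a10 arrays. Colgalt2, the current symbol of Glt25d2, was at 1053, 827 and 1352 against 11.4, 11.7 and 11.7, in the order of the labels. The mean log2 level of 12 neuronal markers lay between 11.92 and 12.45 in every array. Of the 29 pan-endothelial marker genes with a probe set of their own (members not counted), 12 stayed under a mean of 50 in both groups, among them the defining markers Cdh5, Tie1, Emcn and Vwf. Replicate 3 of Glt25d2 was low for many of the membrane proteins listed further on, and each member's result is given with and without it. If a group had all its arrays under 50, a fold is a bound against 50 and holds for the deposited scale only.

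Promoter sequences are shown for Cldn5, Slco1a4 and Tek, whose Glt25d2 values in the first and second arrays exceeded every S100a10 value, and for Eng, where they did not. Each is the 250 bases before the start of the gene in the RefSeq promoter table (build GRCm38.p6), 5′ to 3′ on the gene's strand, and capitals mark the only matches found. The Cldn5 stretch is chr16:18776597-18776846 on the + strand, that of Slco1a4 chr6:141856221-141856470 on the - strand, that of Tek chr4:94739039-94739288 on the + strand and that of Eng chr2:32646345-32646594 on the + strand.
Cldn5: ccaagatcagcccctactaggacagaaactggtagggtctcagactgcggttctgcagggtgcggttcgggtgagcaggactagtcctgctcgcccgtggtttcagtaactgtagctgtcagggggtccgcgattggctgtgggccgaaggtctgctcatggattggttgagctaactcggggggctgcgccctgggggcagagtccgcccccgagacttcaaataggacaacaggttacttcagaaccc
Slco1a4: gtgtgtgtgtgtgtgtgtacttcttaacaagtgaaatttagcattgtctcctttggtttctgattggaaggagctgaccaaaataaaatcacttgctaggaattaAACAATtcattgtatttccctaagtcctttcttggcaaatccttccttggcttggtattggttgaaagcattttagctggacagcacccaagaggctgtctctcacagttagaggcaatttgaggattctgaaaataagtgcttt
Tek: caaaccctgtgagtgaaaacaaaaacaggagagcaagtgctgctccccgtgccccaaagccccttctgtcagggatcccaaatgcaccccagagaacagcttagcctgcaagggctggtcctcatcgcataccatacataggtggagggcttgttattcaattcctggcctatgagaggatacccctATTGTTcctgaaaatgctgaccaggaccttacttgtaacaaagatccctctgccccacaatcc
Eng: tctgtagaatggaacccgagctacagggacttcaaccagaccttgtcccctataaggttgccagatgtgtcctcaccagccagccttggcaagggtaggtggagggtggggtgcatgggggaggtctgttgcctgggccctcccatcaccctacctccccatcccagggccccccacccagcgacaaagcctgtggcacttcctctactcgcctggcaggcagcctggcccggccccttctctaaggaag
The search covered both strands for short cores of factors known in endothelium: for the ETS family the letters CAGGAAG and, as a further form, CCGGAAG, for the SOX family the letters AACAAT, for TCF/LEF factors the letters ATCAAAG, and for the zinc finger factors that include Gata2 the letters AGATAA. Over 32851 promoters of the same length the cores were found in 10.8%, 6.91%, 9.42%, 3.21% and 9.99%, in that order. Among the 8 members in the table, Slco1a4 held AACAAT starting 145 bases before its start, and Tek held it on the opposite strand, 63 bases before its start. Flt1 held no match and is not shown. In most, not all, of its probe sets the first and second Glt25d2 arrays also exceeded every S100a10 array. The same held for Esam, which is not in the table. None of the other listed letters occurred in the member windows, which describes these windows and nothing about binding.

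Among the junction proteins, Cldn5 encodes claudin-5, the main claudin of the endothelial tight junction. Its intensity was 400, 239 and 46.3 in Glt25d2 replicates 1, 2 and 3, and 42.9, 51.1 and 56.9 in S100a10 replicates 1, 2 and 3. The first and second Glt25d2 arrays stood far above every S100a10 array, while the third lay within their range, so the groups overlapped. The means were 228 ± 177 and 50.3 ± 7.04 (SD, n = 3 each). The log2 difference was -1.72 (SE 0.79, 95% interval -3.68 to 0.25) and missed the threshold (limma adjusted p = 0.126). Without Glt25d2 replicate 3 Cldn5 was lower by call, with a difference of -2.63 (SE 0.24, interval -3.21 to -2.05, limma adjusted p = 1.85e-04). Over 18 alternative settings the adjusted p ranged from 1.08e-04 to 0.275 and the difference was always negative. In such TRAP RNA, fewer contributing cells of a type and less RNA per cell cannot be told apart. Which cells the Cldn5 RNA came from was not measured.

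Esam encodes an adhesion molecule of endothelial junctions. Its values were 162, 153 and 114 in the Glt25d2 arrays, against 75.1, 72.1 and 69.1 in the S100a10 arrays. Every S100a10 array was below every Glt25d2 array, and the third Glt25d2 array was again the lowest of its group. Means of 143 ± 25.9 and 72.1 ± 2.99 (SD, n = 3 each) gave a difference of -0.97 (SE 0.16, interval -1.37 to -0.58, limma adjusted p = 0.00427). Esam was lower by call in all 18 alternatives run, with an adjusted p from 5.82e-05 to 0.0215, and its difference was -1.13 without the third Glt25d2 array and -1.94 after quantile normalization. Pecam1, a further junctional adhesion molecule and a common endothelial marker, was listed at 6.33 in each Glt25d2 array and at 6.28, 6.55 and 6.64 in the S100a10 arrays. That is far under the limit of 50 in every array, and Pecam1 was not tested.

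Slco1a4 encodes an organic anion carrier of the brain endothelial membrane. It was at 442, 347 and 67.8 in the Glt25d2 arrays and at 68.3, 94.9 and 73.5 in the S100a10 arrays. As for Cldn5, the first and second Glt25d2 arrays were high, while the third was level with the lowest S100a10 array. Means of 285 ± 194 and 78.9 ± 14.1 (SD, n = 3 each) differed by -1.48 (SE 0.72, interval -3.27 to 0.31, limma adjusted p = 0.143). Without the third Glt25d2 array the difference was -2.32 (SE 0.19, interval -2.78 to -1.87, limma adjusted p = 1.14e-04) and passed the threshold. The adjusted p ranged from 5.89e-05 to 0.312 over 18 alternatives, with a negative difference in each. Cldn5 and Slco1a4 passed in the same 6 alternatives: both rescalings, array weights, and the 3 settings that leave out the third Glt25d2 array.

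Abcb1a encodes P-glycoprotein, the efflux pump that returns drugs and other lipophilic molecules to the blood. Its first probe set, 1419758_at, was at 51.6, 51.9 and 13.5 in the Glt25d2 arrays and at 118, 172 and 157 in the S100a10 arrays. All S100a10 arrays were above all Glt25d2 arrays, opposite to Cldn5 and Slco1a4. The difference was 2.15 (SE 0.56, interval 0.76 to 3.54, limma adjusted p = 0.0235), between means of 39.0 ± 22.1 and 149 ± 27.7 (SD, n = 3 each). It was 1.50 (SE 0.18, limma adjusted p = 5.80e-04) without the third Glt25d2 array. The call was lost after quantile normalization (1.09, adjusted p = 0.0728), after median centring (1.45, adjusted p = 0.0643) and without S100a10 replicate 1, 2 or 3 (adjusted p = 0.0629, 0.0824 and 0.083), and the range over 17 alternatives was 5.80e-04 to 0.083. The second Abcb1a probe set, 1419759_at, which derives from the same source sequence, was at 124, 110 and 12.1 against 116, 191 and 173. There the first and second Glt25d2 arrays lay beside the lowest S100a10 array and the third was far below all others. Its difference was 1.51 (SE 0.93, interval -0.79 to 3.82, limma adjusted p = 0.227), and 0.42 (SE 0.23, limma adjusted p = 0.144) without the third Glt25d2 array. With quantile normalization and without that array it was -0.36 (interval -0.97 to 0.24, limma adjusted p = 0.281). Both probe sets had positive differences as deposited, without the third array and after quantile normalization. The first passed as deposited and without that array, and neither passed after quantile normalization alone. With quantile normalization and without that array the first passed (0.66, interval 0.17 to 1.16, limma adjusted p = 0.0406). It also passed with median centring and without that array (0.85, limma adjusted p = 0.00922). The second probe set passed in none of 19 alternatives (adjusted p 0.0848 to 0.641).

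**Figure D1:**
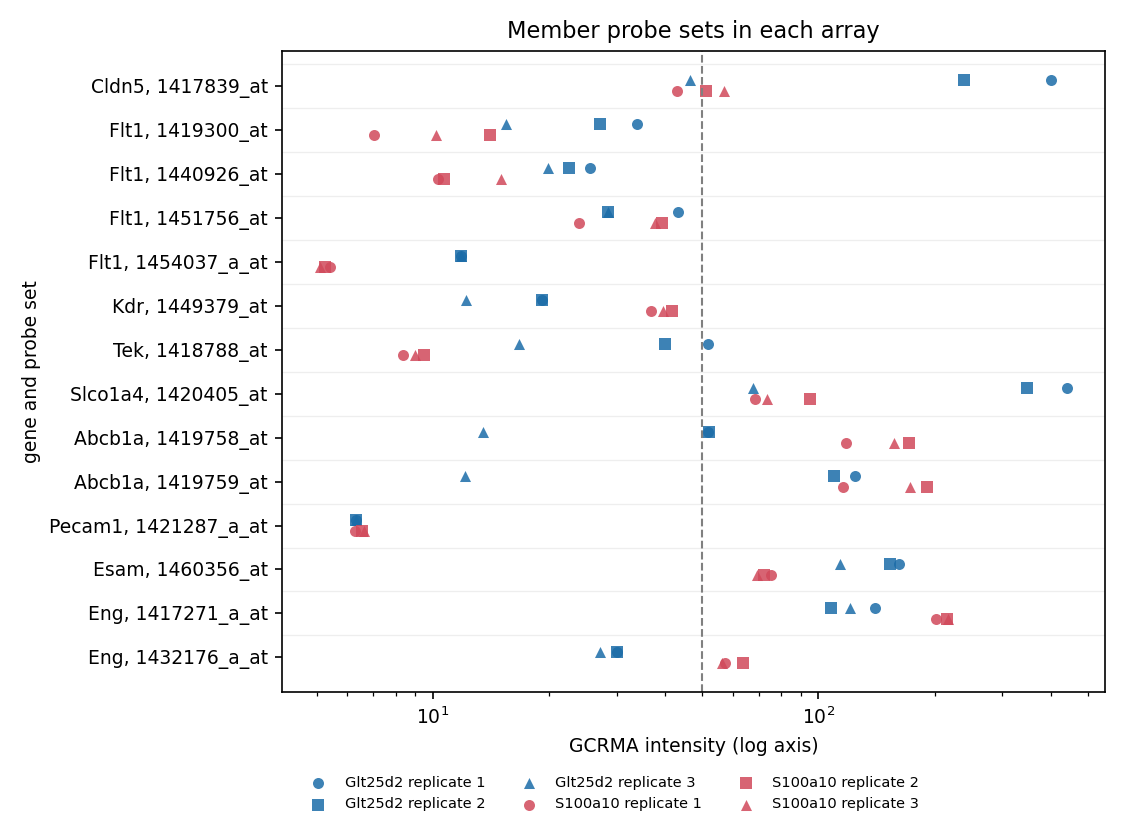
Deposited intensity (log axis) of the 14 member probe sets in each of the 6 arrays; colours are groups, symbols are replicates, and the dashed line is the limit of 50. Blue symbols hidden behind each other have the same value, as for Pecam1 at 6.33; for Cldn5 and Slco1a4 the third Glt25d2 array (blue triangle) lies with the S100a10 arrays, at 46.3 and 67.8.

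Flt1, Kdr and Tek encode endothelial receptor tyrosine kinases, the first and second for VEGF and the third (Tie2) for angiopoietins. None reached a mean of 50 in either group, and their values are described without a test. Tek was at 51.8, 40.1 and 16.7 in the Glt25d2 arrays and at 8.39, 9.46 and 9 in the S100a10 arrays. The third Glt25d2 array was the lowest of its group for Tek, yet still above every S100a10 array. Kdr, the main signalling receptor for VEGF, was at 19.2, 19.2 and 12.2 against 36.8, 41.8 and 39.4. It stood higher in all S100a10 arrays. Flt1, a high-affinity VEGF receptor that also acts as a decoy, has 4 probe sets. The first, 1419300_at, was at 33.9, 27.2 and 15.5 against 7.03, 14.1 and 10.2, and 1440926_at at 25.5, 22.6 and 19.9 against 10.3, 10.7 and 15. In both, every S100a10 array was below every Glt25d2 array. The same held for 1454037_a_at, at 11.8 in each Glt25d2 array, against 5.4, 5.26 and 5.09 in the S100a10 arrays. The groups overlapped in the fourth, 1451756_at, at 43.1, 28.5 and 28.5 against 23.9, 39.2 and 37.6, so the Flt1 probe sets did not all order the groups alike.

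Eng encodes endoglin, a co-receptor for ligands of the transforming growth factor family on endothelium. The probe set 1417271_a_at was at 140, 108 and 121 in the Glt25d2 arrays and at 202, 215 and 217 in the S100a10 arrays. In this gene the third Glt25d2 array was not the lowest, and the groups did not overlap. On the deposited scale it was higher, by 0.79 (SE 0.13, interval 0.48 to 1.10, limma adjusted p = 0.00383; means 123 ± 15.9 and 211 ± 8.42, SD, n = 3 each), whereas after quantile normalization the difference was -0.048 (limma adjusted p = 0.837) and after median centring 0.084 (adjusted p = 0.695). The second probe set, 1432176_a_at, was at 30.1, 30.1 and 27.2 against 57.1, 63.7 and 56.3. All its Glt25d2 values were under 50, so its fold is a bound, at least 1.18-fold higher on the deposited scale (difference 1.02, SE 0.10, limma adjusted p = 7.04e-04). After quantile normalization that difference was -0.29 (limma adjusted p = 0.167). Over the alternatives the adjusted p ranged from 8.06e-04 to 0.918 for the first Eng probe set and from 8.93e-05 to 0.224 for the second. The deposited differences of 0.79 and 1.02 stand beside a median of 0.56 over all genes. Neither Eng probe set had a direction that held under rescaling, and the part of the array's scale in these differences was not tested.

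**Figure D2:**
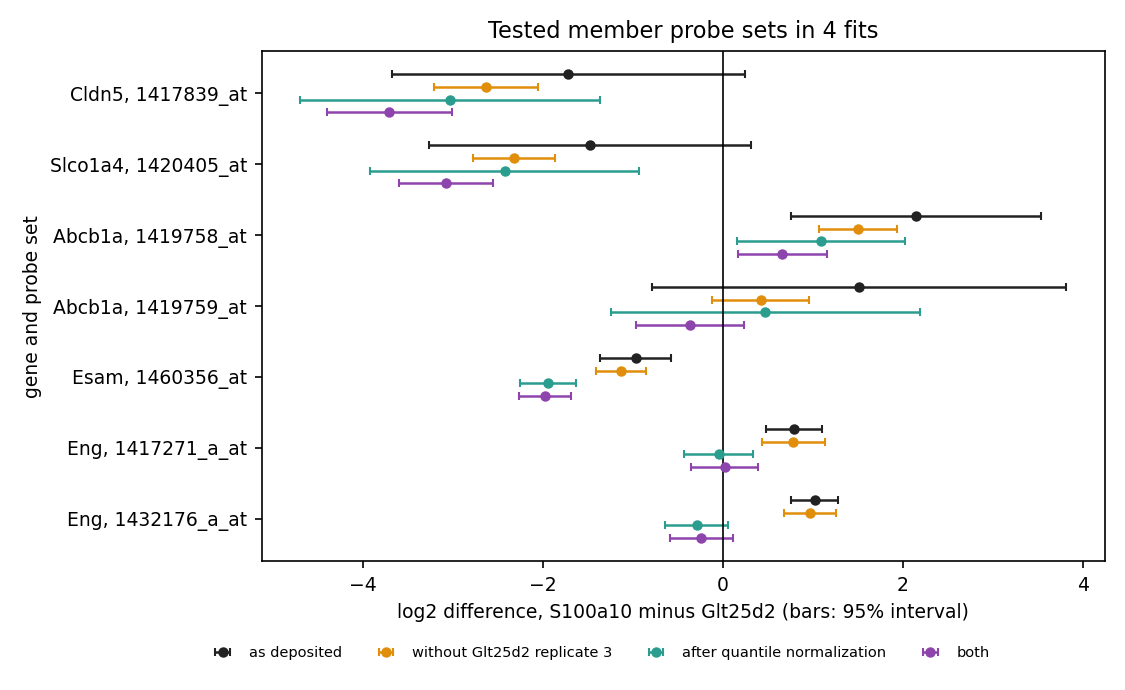
Log2 difference, S100a10 minus Glt25d2, of the 7 tested member probe sets with 95% intervals in 4 fits: as deposited, without Glt25d2 replicate 3, after quantile normalization, and with both changes. Esam is below 0 in all 4 fits, Cldn5 and Slco1a4 have intervals that cross 0 only in the fit of the deposited values, and the intervals of both Eng probe sets cross 0 after quantile normalization.

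Read over all 14 member probe sets, every S100a10 array was below every Glt25d2 array in 5 and above in 4, and the groups overlapped in the other 5. Over all probe sets those shares were 16.7% below and 51.9% above. Of the 5 tested member genes, each at its brightest tested probe set, Esam was lower by call and Eng higher, where 4.5% of all 11821 genes were called lower and 44.4% higher. Without the third Glt25d2 array Cldn5, Slco1a4 and Esam were lower and Eng higher, against 6.13% and 55.1% of all genes. After quantile normalization Cldn5, Slco1a4 and Esam were lower and none was higher by limma, beside 18.4% lower and 16.8% higher over all genes. With both changes these genes were again lower and none higher, beside 22.3% and 21.6%. At an unadjusted p under 0.05 the count of higher member genes was also 0 in both quantile fits. The call of the dimmer Abcb1a probe set is not part of these counts, and Kdr, Tek, Flt1 and Pecam1 are outside them because their levels were under the limit.

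The third Glt25d2 array departed from both others of its group in most, not all, member probe sets. It held the lowest Glt25d2 value in 10 of 14 member probe sets and in 6 of the 7 tested ones. The highest value was in Glt25d2 replicate 1 in 9 of 14. Over all tested probe sets the third array was lowest in 24.2% and highest in 51.8%. The fold between the mean of the other two arrays and the third was 9.63 for Abcb1a 1419759_at, 6.68 for Cldn5, 5.77 for Slco1a4 and 1.39 for Esam. In 4 of the 7 tested member probe sets (Cldn5, Slco1a4 and both of Abcb1a) it exceeded 2, against 13.3% of all 21291 tested probe sets. The median log2 departure was -1.94 for the 7 tested member probe sets, -0.57 for all 14 and 0.086 for all tested probe sets. The members were proposed with this array known to be low for membrane proteins, so these comparisons with all tested probe sets are descriptions and not tests. The Abcb1a probe sets measure the same gene. Why this array is low was not tested.

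The departure was unequal among related lists. It was large for barrier transporters (median -2.22, over 2-fold below in 16 of 20 genes) and other pan-endothelial markers (-2.10, 14 of 17). It was small for endothelial transcription factors (-0.35, 1 of 19) and for VEGF and angiopoietin signalling (-0.00089, 3 of 14). Junction proteins had a median of -0.40 (5 of 13) and TGF-beta and BMP receptors one of -0.87 (4 of 13). Outside endothelium the median was -1.30 for astrocyte markers (6 of 12), -0.50 for fibroblast markers (7 of 15), -0.17 for mural cell markers (2 of 9) and 0.18 for neuronal markers (2 of 12). Low values in this array were thus not limited to endothelial genes. Examples chosen after their values were seen were the glucose carrier Slc2a1 at 3202, 2204 and 197 in the Glt25d2 arrays against 584, 824 and 850, and the lipid carrier Mfsd2a at 145, 132 and 14.5 against 29.8, 41.6 and 45.6. In both, as in Cldn5, the first and second Glt25d2 arrays exceeded every S100a10 array and the third did not.

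**Figure D3:**
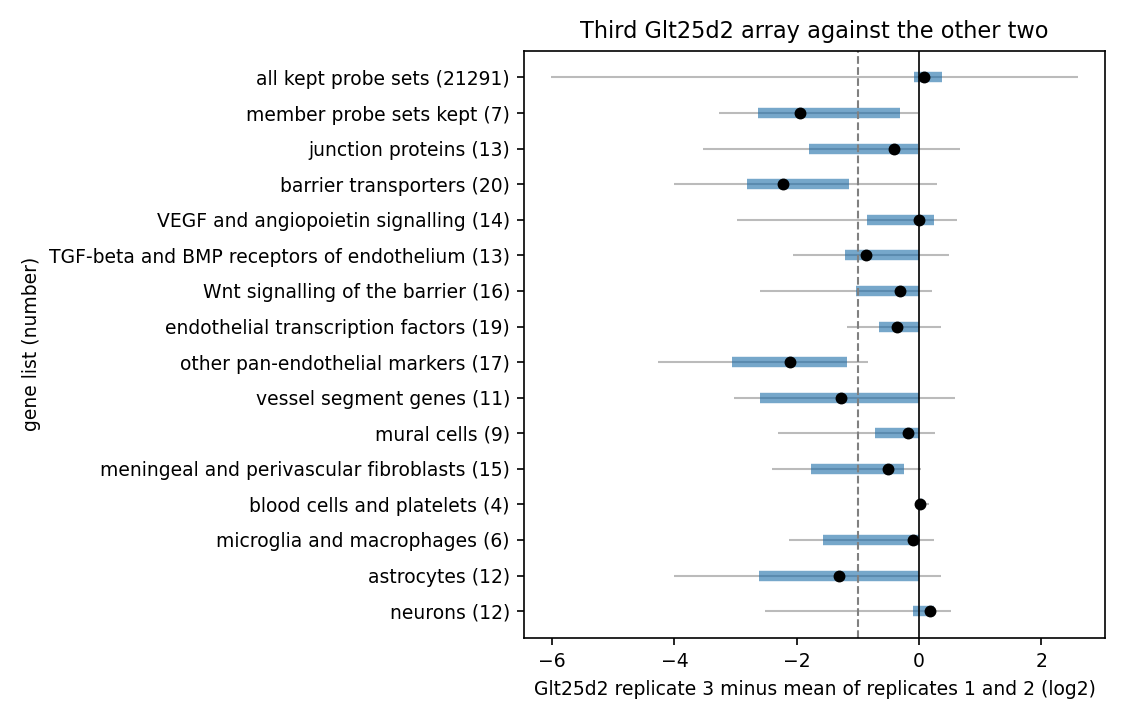
Log2 intensity of Glt25d2 replicate 3 minus the mean log2 intensity of Glt25d2 replicates 1 and 2, by gene list with the number of genes or probe sets; points are medians, thick bars the interquartile ranges, thin lines the full range, and the dashed line marks 2-fold below. The 7 tested member probe sets (median -1.94), barrier transporters and other pan-endothelial markers lie furthest below 0.

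The members' pathways were then read from gene lists, leaving the members out. These lists hold pathway genes as well as markers, among them the ligands Vegfa, Vegfb and Wnt7b, so their counts are not limited to endothelial markers. Over 8 endothelial lists, 50 of 115 measured genes were higher by limma and 15 lower (43.5% and 13%, beside 44.4% and 4.5% of all genes). Without the third Glt25d2 array the counts were 54 and 27, after quantile normalization 30 and 31, and with both 36 and 46.

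Among 13 junction proteins limma called 8 higher and 0 lower (0 lower at an unadjusted p under 0.05 as well), with a median difference of 1.02; of all genes 44.4% were higher. The counts were 4 higher and 1 lower after quantile normalization, 2 and 1 after median centring, and 3 and 4 with centring and without the third Glt25d2 array. Where both group means had to reach 50, 6 of 12 were higher, beside 36.6% of all genes. Under that filter 0 were lower by limma (0 at an unadjusted p under 0.05). The junction adhesion molecule Jam2 was at 84.4, 87 and 19.5 in the Glt25d2 arrays, against 261, 302 and 247 in the S100a10 arrays (difference 2.36, SE 0.60, limma adjusted p = 0.0218). Jam2 missed the threshold after quantile normalization (adjusted p = 0.0505), after median centring and without S100a10 replicate 1, 2 or 3 (1.11e-04 to 0.0764 over all alternatives). Cgnl1, a junction adaptor, was at 56.9 in each Glt25d2 array, against 303, 229 and 240 in the S100a10 arrays (2.17, SE 0.13, limma adjusted p = 1.08e-04). The tricellular junction receptor Lsr was at least 1.86-fold higher. Cdh2, N-cadherin, was at 1235, 2014 and 137 against 1659, 2238 and 1890 and did not pass (1.46, limma adjusted p = 0.274; 0.28 without the third Glt25d2 array and -0.14 with quantile normalization as well). Cdh5, the cadherin that defines endothelial junctions, was under the limit.

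Among 20 barrier transporters limma called 6 higher (Slc22a8, Slc38a3, Abcc4, Abca1, Abcg2 and Abcc5) and 0 lower in the deposited values, where 1 was lower at an unadjusted p under 0.05. That is 30% higher, beside 44.4% of all genes, with a median difference of 0.81. The balance turned on rescaling, to 2 higher and 4 lower after quantile normalization and 2 and 9 when the third Glt25d2 array was also left out. Where both group means had to reach 50, 2 of 15 were higher (13.3%, beside 36.6% of all genes). Under that filter 0 were lower by limma, and 1 at an unadjusted p under 0.05. The thyroid hormone and anion carrier Slco1c1, a paralog of Slco1a4, was at 433, 538 and 69.8 in the Glt25d2 arrays, against 50, 55.9 and 58.2 in the S100a10 arrays. Its difference was -2.22 (SE 0.79, limma adjusted p = 0.0623), and -3.15 (adjusted p = 1.31e-05) without the third Glt25d2 array; over 18 alternatives the adjusted p ranged from 8.10e-06 to 0.165. Without that array Slco1c1, Mfsd2a, Slc2a1 and the iron exporter Slc40a1 were lower and 8 transporters higher. The organic anion carrier Slc22a8 was higher in all 4 fits shown for the members, at 60.9, 49.7 and 24.3 against 2885, 3431 and 2866 (6.19, SE 0.35, limma adjusted p = 8.32e-05). Slc22a8 is also known from meningeal and choroid plexus cells. The amino acid carrier Slc38a3 was at least 4.21-fold higher and the efflux pump Abcc4 at least 2.31-fold, and Abcc4 missed the threshold after quantile normalization (limma adjusted p = 0.0698) and without S100a10 replicate 2 or 3 (9.66e-04 to 0.0887 over all alternatives).

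In VEGF and angiopoietin signalling, 8 of 14 genes were higher and 2 lower, with a median difference of 0.96, beside 44.4% and 4.5% of all genes. The counts were 5 higher and 3 lower after quantile normalization (median 0.041), and 5 and 5 without the third Glt25d2 array as well. Where both group means had to reach 50, 3 of 8 were higher and 1 lower, with a median of 0.52. Under that filter 36.6% of all genes were higher and 3.99% lower. The ligand Vegfb was at 177, 167 and 172 against 892, 824 and 970 (2.38, SE 0.10, limma adjusted p = 3.33e-05). Vegfa was at least 3.43-fold higher, Angptl4, a secreted angiopoietin-like protein, at least 4.42-fold and Plcg2, a phospholipase, at least 2.72-fold. The lower genes were Angpt1, the activating Tek ligand, at 170, 170 and 130 against 58.2, 43.8 and 55.5 (-1.58, SE 0.17, limma adjusted p = 9.01e-04), and Ptprb, the endothelial phosphatase that acts on Tek. Ptprb was at 100, 82.6 and 46.3 against 20, 21 and 22.8, at least 1.45-fold lower, but was not called with values under 50 set to 50 (-0.58, limma adjusted p = 0.127, the highest of 17 alternatives, the others from 2.49e-05).

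In the list of receptors and effectors of TGF-beta and bone morphogenetic protein around Eng, limma called 7 of 13 genes higher and 0 lower (0 lower at an unadjusted p under 0.05 as well). That is 53.8% higher, beside 44.4% of all genes, with a median difference of 1.03 beside 0.56. After quantile normalization 7 were higher and 3 lower, where 16.8% of all genes were higher and 18.4% lower. Where both group means had to reach 50, 6 of 12 were higher, beside 36.6% of all genes. Under that filter 0 were lower by limma (0 at an unadjusted p under 0.05). Smad6, an inhibitory effector, was at 8.2 in every Glt25d2 array, against 268, 293 and 227 in the S100a10 arrays, at least 5.23-fold higher. The co-receptor Tgfbr3 was at 139, 135 and 32.8 against 1057, 1268 and 948 (3.67, SE 0.59, limma adjusted p = 0.0039). Id3, a target gene of this signalling, differed by 3.21 and the receptor Tgfbr2 by 2.97, and both passed in the 4 fits shown for the members.

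In the Wnt list 8 of 16 genes were higher and 2 lower (50% and 12.5%, beside 44.4% and 4.5% of all genes), with a median difference of 0.89. The balance turned to 4 higher and 5 lower after quantile normalization and 3 and 5 after median centring, and was 6 and 4 with quantile normalization and without the third Glt25d2 array. Where both group means had to reach 50, 5 of 12 were higher and 1 lower, beside 36.6% and 3.99% of all genes. The receptor partners Reck (60.5, 52.9 and 29 against 404, 587 and 529; 3.47, SE 0.31, limma adjusted p = 4.46e-04) and Adgra2 (at least 3.44-fold) were higher, as was the feedback inhibitor Nkd1 (2.83). The transcription factors Sox17 and Foxq1 were lower. Sox17, which acts in arterial and barrier endothelium, was at 928, 923 and 493 in the Glt25d2 arrays, against 43.7, 48.6 and 52.7 in the S100a10 arrays. Its difference was -3.96 (SE 0.27, limma adjusted p = 1.61e-04) and was called in all 18 alternatives (adjusted p 1.77e-06 to 0.00369).

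Endothelial transcription factors had the lowest list median, -0.27 beside 0.56 for all genes, with 8 of 19 lower and 6 higher (42.1% and 31.6%, beside 4.5% and 44.4% of all genes). This list was chosen with earlier results of these data known, so the comparison with all genes is a description and not a test. With both group means required to reach 50, which leaves out genes low in either group, 2 of 12 were lower and 4 higher, with a median of 0.39. The lower ones were Sox17, Erg, Gata2, Mecom, Sox18, Foxq1, Tal1 and Bcl6b. All 8 were also lower after quantile normalization and without the third Glt25d2 array. Erg, an ETS factor of endothelial identity, was at 197, 157 and 177 against 18.5, 18.2 and 13.8, at least 3.53-fold lower, and here the third Glt25d2 array lay between the other two. Among the higher ones, Foxc1, which meningeal and mural cells also express, was at 22.1 in each Glt25d2 array, against 1897, 1626 and 1582 in the S100a10 arrays, at least 33.9-fold. Klf4 differed by 2.38 and Nr2f2, a venous factor, by 2.29, while Foxf2 was called higher as deposited and lower after quantile normalization.

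Of the other pan-endothelial markers, with a median difference of 0.28, 5 of 17 were lower and 4 higher, and 8 and 5 without the third Glt25d2 array. Of all genes 4.5% were lower and 44.4% higher as deposited. After quantile normalization 6 markers were lower and 2 higher, and with both changes 11 and 4. Under the stricter filter (each group averaging at least 50) 0 of 11 were lower by limma (0 at an unadjusted p under 0.05) and 3 higher. Of all genes 3.99% were lower and 36.6% higher under that filter. It leaves out genes low in either group, and so by construction every marker called lower as deposited. The lower ones as deposited were Ctla2a (581, 418 and 115 against 28.3, 34.3 and 38.5, at least 6.06-fold), Nostrin (at least 4.09-fold), Cyyr1 (at least 3.13-fold), She (at least 2.41-fold) and Ptprb. Nostrin encodes a regulator of endothelial nitric oxide synthase. The higher ones as deposited were Ramp2 (2.69), Tm4sf1 (2.55), Pltp (2.44) and Ly6e (1.53). Ramp2 and Pltp did not pass after quantile normalization (limma adjusted p = 0.0813 and 0.0509) or without Glt25d2 replicate 2, and Ramp2, Tm4sf1 and Pltp did not pass without S100a10 replicate 1, 2 or 3. Over all alternatives the adjusted p reached 0.136 for Ramp2, 0.102 for Pltp and 0.07 for Tm4sf1. All 3 are expressed outside endothelium too. Among 11 genes of vessel segments (median difference 1.07), Vcam1 (3.56), Nr2f2, Plvap (1.67) and Apln (at least 2.04-fold, limma adjusted p = 0.665 after quantile normalization) were higher and Rgcc, a capillary gene, lower (-1.52, SE 0.26, limma adjusted p = 0.00519). The counts of 4 higher and 1 lower became 3 and 1 after quantile normalization and 4 and 4 without the third Glt25d2 array as well. Where both group means had to reach 50, 3 of 10 were higher and 1 lower.

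**Figure D4:**
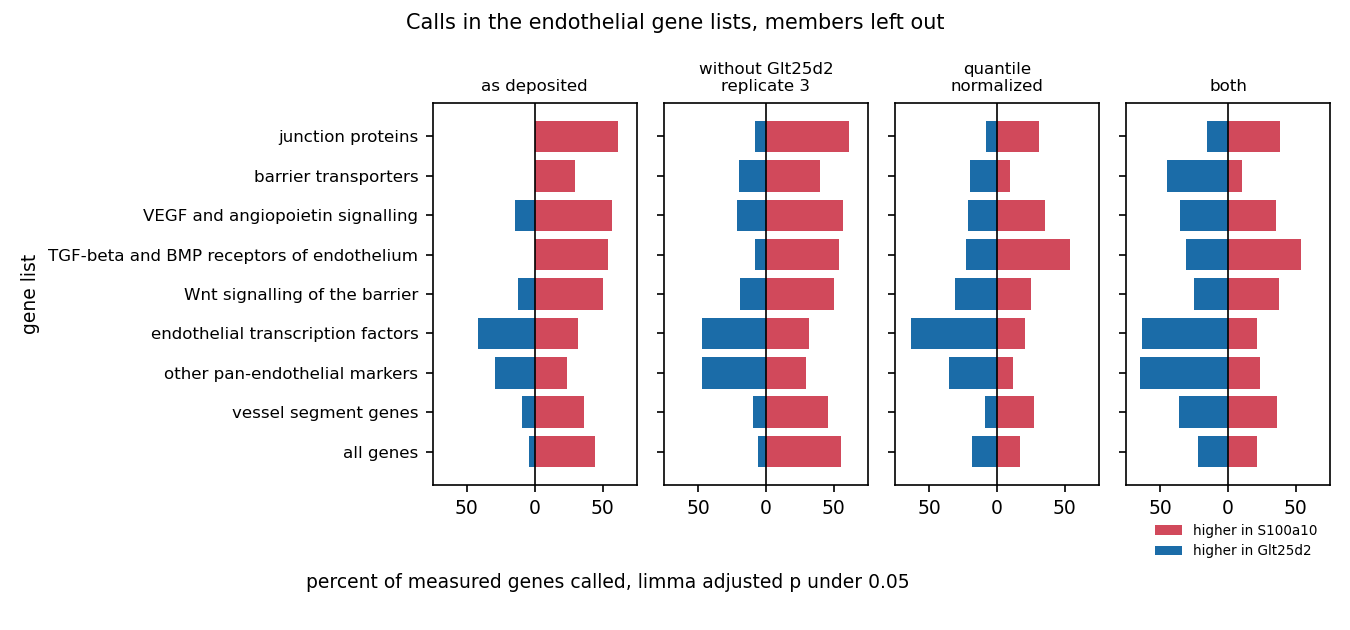
Percent of measured genes called by limma in each endothelial gene list (members left out) and over all genes; red bars to the right are higher in S100a10 and blue bars to the left higher in Glt25d2, in the 4 fits named above the panels. Endothelial transcription factors have more lower than higher calls in each panel, 8 and 6 of 19 as deposited and 12 and 4 after quantile normalization.

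Markers of fibroblasts and mural cells moved with the groups as well. All 15 measured fibroblast markers of 16 listed were higher, beside 44.4% of all genes, with a median difference of 6.76 (5.44 with values under 50 set to 50). Most of them passed the filter through the S100a10 group alone: where both group means had to reach 50, 6 were measured and all 6 were higher. This list was chosen with earlier results of these data known. The mean log2 level of the 15 was 4.07 to 5.25 in the Glt25d2 arrays, against 11.07 to 11.33 in the S100a10 arrays. Foxd1 was at 15.8, 23 and 15.8 against 9151, 8471 and 7196, at least 165-fold higher, and Ogn was at least 115-fold higher. Of 9 measured mural cell markers (median difference 4.47) 7 were higher, led by Myl9 (at least 32.2-fold) and Pdgfrb (at least 17.2-fold), and the pericyte gene Rgs5 was lower, at 373, 459 and 497 against 217, 260 and 242. Where both group means had to reach 50, 3 of 5 mural markers were higher and 1 lower. The mural mean log2 level was 5.57 to 6.27 and 9.36 to 9.68, with the defining genes Kcnj8, Abcc9, Higd1b and Notch3 under the limit. Of 12 astrocyte markers 4 were higher (33.3%, beside 44.4% of all genes) and 2 lower. Gjb6, an astrocyte connexin also known from the meninges, was at 75.5, 166 and 19.7 against 4516, 4871 and 5057. Of 6 measured microglia and macrophage markers Tmem119 and Tyrobp were higher (33.3%), and Tyrobp did not pass after quantile normalization (limma adjusted p = 0.0684). The 4 measured blood genes (Cd52, Lyz2, Pf4 and Itga2b) passed the filter through the S100a10 group alone and were called higher; a gene low in Glt25d2 could pass only by being high in S100a10. After quantile normalization Cd52 was higher, Itga2b reversed to -0.72, and Lyz2 and Pf4 did not pass (limma adjusted p = 0.337 and 0.174). The part of these cell types in the member values was not tested.

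The genes whose 6-array profile was most like the members' mean profile were found over 11816 genes, members left out. Likeness was the root mean square difference between log2 profiles, each centred on its own mean, over the 6 arrays. The nearest were Slit1 (0.107), Cyp2j9 (0.119), Lamp5 (0.12), Ramp3 (0.138), Kcna1 (0.159), Cbln2 (0.173), Syt7 (0.173) and Rspo2 (0.187). Lamp5 was at 12152, 10867 and 3840 in the Glt25d2 arrays, against 5847, 6063 and 6659 in the S100a10 arrays. The third Glt25d2 array lay below every S100a10 array in each of these 8 genes, and the first above all of them. Several are known from neurons, among them the guidance ligand Slit1, the potassium channel Kcna1 and the synaptotagmin Syt7. The members' own distances from their mean were 0.553 for Esam, 0.61 for Slco1a4, 0.752 for Cldn5, 0.834 for Eng and 1.07 for Abcb1a. The 8 genes were picked as the nearest, so their smaller distances and like array pattern follow from that choice. As deposited Esam was lower by call and Eng higher, so the members did not share 1 profile.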

How the data were processed

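The authors deposited 1 table of array intensities on a linear scale for the 6 samples. Per the submitters' processing notes the software was GCRMA, a method that adjusts background for probe base composition, aligns quantiles and summarises probe sets. The sources used here give no version. Per the labels, 15 ng of RNA went through a two-cycle amplification and biotin labelling. The deposited quantiles differed by 0.447 to 0.508 between groups and by 0.0174 to 0.0811 within them (mean absolute difference of sorted log2 values), so the scale may carry part of a difference. The series text recommends a probe set list from a paper's table, which is not used here.

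Of 45101 probe sets, 64 controls were left out. By the platform's annotation, 34945 of the others name 1 gene and 932 several, and genes were named only from the former. The 21291 probe sets whose mean reached 50 in 1 or both groups were fitted on log2 values, without a pseudocount, using lmFit and eBayes of limma 3.58.1 (R 4.3.3), 2-sided, with Benjamini-Hochberg adjustment. The fit was tested on simulated data. A gene is read at its kept probe set with the highest mean. Precision is limited by the number of arrays.

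The members and lists were chosen with earlier results of these data known. Named are all members, in each list the genes with the largest differences (up to 4), any further gene behind a count of 5 or fewer, the drivers and the 8 genes most like the members; for lists outside endothelium only the leading ones are printed. Other genes were named after their values were seen. Alternatives were 3 other filters, a pseudocount of 16, a floor of 50, quantile normalization and median centring of the tested probe sets (each also without Glt25d2 replicate 3), array weights, a trended prior, a replicate block, averaging the probe sets of a gene, and leaving out each array. Tables and plots were made with pandas 2.3.3, numpy 2.4.6 and matplotlib 3.10.9 in Python 3.11.15.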

Additional observations from a re-analysis of the deposited data

How the results depend on the processing

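As deposited, limma called 9405 probe sets higher in S100a10 and 934 lower. With no filter the counts were 19640 and 5131, after quantile normalization 3167 and 4189, after median centring 3456 and 5131, and these became 4201 and 5008, and 4724 and 6626, when Glt25d2 replicate 3 was also left out. The number lower was 558 with the replicate block and 1537 with array weights, and leaving out each array in turn gave 7361 to 11722 higher and 617 to 1278 lower. Of the member genes, 1 was higher and 1 lower. With no filter 2 were higher and 2 lower (Kdr and Tek joined Eng and Esam, with values under the limit), and in both rescalings, with or without that array, 0 were higher and 3 lower. With array weights 3 were lower, and without 1 array 1 was higher and 1 to 3 lower, 3 only without Glt25d2 replicate 3. Beside these counts, 46.3% of all genes were higher and 9.58% lower with no filter, and 58.8% and 7.61% with array weights. After median centring the shares were 16.9% and 25.1%, and 22.5% and 32.6% without Glt25d2 replicate 3 as well. Of the genes in the endothelial lists, 50 were higher and 15 lower. These counts were 31 and 4 with both means at 50 or more, which leaves out genes low in either group. They were 30 and 31 after quantile normalization and 28 and 29 after median centring. The lower count was 27 with no filter, 27 with array weights, 46 and 48 with quantile normalization or centring without Glt25d2 replicate 3, and 15 to 27 without 1 array (higher 35 to 54).

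The Cldn5 difference was -3.03 after quantile normalization, -2.42 after centring, -2.30 with array weights, and -3.71 and -3.29 with quantile normalization or centring without Glt25d2 replicate 3. Without 1 array it was -2.63 to -1.07, called only without that replicate. For Slco1a4 the same settings gave -2.42, -2.19, -2.17, -3.08 and -2.98, and -2.32 to -0.97 without 1 array, again called only without that replicate. Abcb1a 1419758_at was at 1.09 after quantile normalization and 1.45 after centring, not called in either. Without Glt25d2 replicate 3 as well it was at 0.66 and 0.85 and was called in both. It was at 1.50 to 2.48 without 1 array and missed the threshold without S100a10 replicate 1, 2 or 3. Abcb1a 1419759_at reversed to -0.36 and -0.23 with quantile normalization or centring without Glt25d2 replicate 3. Eng 1417271_a_at was at -0.048 after quantile normalization and 0.084 after centring, and at 0.022 and 0.13 without that replicate as well. Eng 1432176_a_at was at 0.24 with a floor of 50, at -0.29 and 0.32 in the rescalings, and at -0.24 and 0.31 without that replicate as well. Among other named genes, Cdh2 reversed to -0.14 and -0.38 with quantile normalization or centring without that replicate. Itga2b reversed to -0.72, -0.30, -0.56 and -0.20 in the same 4 settings, and Rbfox3 to -0.18 and -0.14 with centring. The cause of these changes was not tested, except that fewer probe sets or arrays enter by construction where a filter or array was changed.

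Same-numbered samples deviated from their group means with correlations of -0.452, 0.224 and -0.238. With 3 arrays a group such correlations cannot decide whether same-numbered samples were prepared together. The labels end in rep1, rep2 and rep3 for Glt25d2 and in rep1b, rep2b and rep3b for S100a10. They do not explain the letter b, which runs with the groups. The main fit treats the samples as unpaired. The replicate block changed no call of a member probe set. Abcb1a 1419758_at has no value with both means at 50 or more, and Eng 1432176_a_at has none there or where the mean over all arrays must reach 50. The means of all Flt1, Kdr, Tek and Pecam1 probe sets were under the limit of 50, so these genes were tested only with no filter.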
